A study of Mus musculus with 18 samples.

Results

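The 10 genes described here decide whether a resting lymphocyte leaves quiescence and enters the G1 phase of the cell cycle. They are the D cyclins Ccnd1, Ccnd2 and Ccnd3, their kinases Cdk4 and Cdk6, the CDK inhibitors Cdkn1a (p21), Cdkn1b (p27), Cdkn2c (p18) and Cdkn2d (p19), and the retinoblastoma gene Rb1. They were chosen by symbol as a textbook pathway, though with earlier results of these data known. Each has 1 row among the 23420 genes of every file. D cyclins appear when a cell receives a mitogenic signal, bind CDK4 or CDK6 and phosphorylate the retinoblastoma protein, which then releases E2F transcription factors. INK4 proteins (p18, p19) block CDK4 and CDK6 alone, while CIP/KIP proteins (p21, p27) bind whole cyclin and CDK complexes. In resting B cells p27 is abundant, and Ccnd2 is the D cyclin known to be induced early by B cell mitogens.

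RNA was sequenced from spleen B cells that had been purified with beads by negative selection from MRL/lpr mice, a lupus-prone strain that lacks functional Fas, aged 5 to 7 weeks. The cells were cultured for 4 h with or without an agonist of an endosomal Toll-like receptor, giving 6 groups of 3 libraries. Of the 4 groups on a Tlr7-/- background, from female mice, 2 came from Tlr9+/- mice (called Tlr9het here) and 2 from Tlr997 mice, and in each genotype 1 group received the TLR9 agonist CpG, a synthetic oligonucleotide, at 10 µg/ml and 1 was left unstimulated. The last 2 groups came from male Tlr779 Tlr9-/- mice, unstimulated or with the TLR7 agonist CL097 at 5 µg/ml. Tlr997 carries the signalling (TIR) domain of TLR7 on the rest of TLR9, and Tlr779 carries the TIR domain of TLR9 on the rest of TLR7; each chimera sits at the locus of the receptor whose ectodomain it keeps. The titles call the CpG control Tlr9+/-, as does the design text, while the treatment protocol names it Tlr9-/-; the titles were followed. Agonist, sex and genetic background differ together between the Tlr7-/- and Tlr779 arms, so no test was made across arms, and the control arm of Tlr779 was not analysed here.

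Values are log2 CPM (read counts scaled to a common library size, on a log2 scale) as the authors normalised them, so that no counts and no depth per library were known. Over the 11012 genes tested in both arms, libraries of a group correlated at r of 0.95 to 0.99, and the lowest values (0.95 and 0.96) were those of Tlr997 unstimulated replicate 3. Tlr9 RNA lay between 6.93 and 8.08 in all groups, Tlr9-/- included, and Tlr7 RNA at 2.68 to 4.28 in Tlr9het, 4.81 to 5.36 in Tlr997 and 6.61 to 7.82 in Tlr779, without overlap between genotypes. Which parts of these genes the reads cover is not known, so these levels do not show which alleles a library carried. Summed CPM of 7 B cell markers was 5850 to 7670 without agonist, 1820 to 1880 in Tlr9het with CpG, 2790 to 3330 in Tlr997 with CpG and 2580 to 3230 in Tlr779 with CL097. Markers of T cells summed to at most 31.2 CPM and of neutrophils to at most 120. Those of macrophages summed to at most 344 and of erythroid cells to at most 484. Of 6 erythroid markers found, the haemoglobin genes Hba-a1, Hba-a2 and Hbb-b1 were below 0 log2 CPM in all 18 libraries. The erythroid sum thus came mostly from the other markers of that list. T cell markers were at 7.32 to 15.4 CPM without and 13.3 to 31.2 with CpG in Tlr9het and at 3.66 to 15.1 and 12.7 to 24.3 in Tlr997, and NK cell markers at 3.88 to 6.79 and 3.98 to 10.7 in Tlr9het and at 3.75 to 5.49 and 5.05 to 6.78 in Tlr997. Stroma and endothelium markers summed to 200 to 291 CPM in every library. Of these 6 markers, Col1a1 and Col3a1 were below 0 log2 CPM in all 18, and the sum came mostly from the others. These are bulk libraries, in which fewer cells of a type and less RNA per cell cannot be told apart, and the part of cell composition in the results was not tested. A gene is called higher or lower below where the limma test gave an adjusted p under 0.05 and a log2 change over 0.5 in size; SE is the standard error of that change.

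Promoter windows (250 bases before to 50 after the start of transcription, RefSeq, GRCm38.p6) were found for 7 of the 10 genes, and Ccnd1, Ccnd2 and Rb1 were not searched. They are shown only for the 2 kinase genes, whose windows hold the E-box CACGTG, the palindrome bound by MYC and related factors. Both kinase genes rose with agonist. A Cdkn2c window also holds the E-box and is not shown, and Cdkn2c was called higher in no response. Capitals mark the E-box. The Cdk4 window is chr10:127063285-127063584 on the plus strand and the Cdk6 window chr5:3343643-3343942 on the plus strand.
Cdk4: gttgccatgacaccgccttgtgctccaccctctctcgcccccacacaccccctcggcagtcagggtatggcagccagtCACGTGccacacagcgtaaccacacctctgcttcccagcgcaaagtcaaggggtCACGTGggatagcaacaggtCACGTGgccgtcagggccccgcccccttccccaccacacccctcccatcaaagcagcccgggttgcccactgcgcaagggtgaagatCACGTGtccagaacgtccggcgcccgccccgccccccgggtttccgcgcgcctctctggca
Cdk6: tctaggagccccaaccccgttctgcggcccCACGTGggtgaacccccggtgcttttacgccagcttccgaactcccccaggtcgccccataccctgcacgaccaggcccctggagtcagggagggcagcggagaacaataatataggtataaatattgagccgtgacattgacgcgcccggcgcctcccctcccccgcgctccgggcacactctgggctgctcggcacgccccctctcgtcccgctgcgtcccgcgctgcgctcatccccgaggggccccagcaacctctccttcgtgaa
The Cdk4 window held 4 copies, whose first bases lay at -172, -118, -98 and -11 from the start site, and the Cdk6 window 1 copy at -220. The Cdk6 window lies inside the annotated gene, which starts upstream at chr5:3341485. Its -220 is thus counted from a start site within that gene. Of 32851 windows of the same length, 7.15% held at least 1 copy and 0.024% (8 windows) at least 4. Among the other members, 1 of the 2 Cdkn2c windows held 1 copy, and 1 of the 2 Ccnd3 windows held the forkhead sequence GTAAACA (3.65% of all windows). The E2F sequences TTTCGCGC and TTTGGCGC were in none of the members' windows and in 0.813% of all. All motifs were searched on both strands, and CACGTG reads the same on both. A match describes letters and shows no binding.

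The agonists moved the pathway in both directions. CpG in Tlr9het cells raised 4 of the 10 genes (Ccnd2, Cdk4, Cdk6, Cdkn1a) and lowered 3 (Cdkn1b, Cdkn2d, Rb1), where 57.9% of 11494 genes tested were called, 29.7% higher and 28.2% lower. In Tlr997 cells CpG raised the same 4 and lowered 5, with Ccnd3 and Cdkn2c added, where 55.6% of all genes were called (29.6% higher, 26% lower). CL097 in Tlr779 cells raised 3 (Ccnd2, Cdk4, Cdk6) and lowered 3 (Cdkn1b, Cdkn2d, Rb1), where 46.3% of 11082 genes were called (22.7% higher, 23.6% lower). Ccnd2, Cdk4 and Cdk6 were thus called higher and Cdkn1b, Cdkn2d and Rb1 lower in all 3 responses, and Ccnd1 was called in none. The median log2 change of the 10 genes was -0.10, -0.14 and 0.18 in the 3 responses, beside 0.04, 0.07 and -0.02 over all genes tested. Stimulated and unstimulated libraries did not overlap for 8, 9 and 7 members, against 80.1%, 71.2% and 67.8% of all genes.

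**Figure D1:**
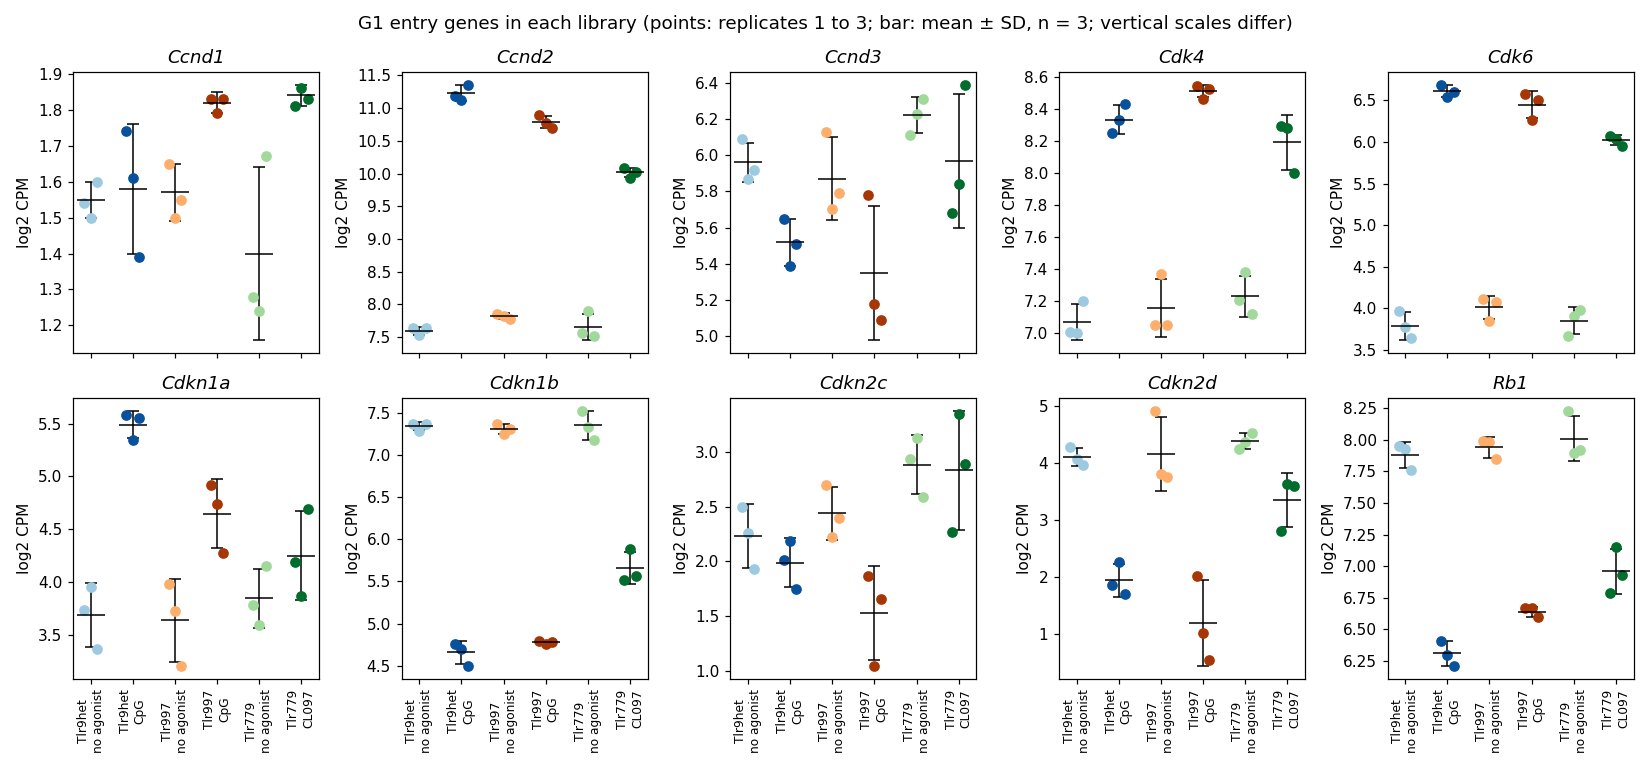
Level of each gene in log2 CPM (vertical axis; scales differ between panels) in each library of the 6 groups (horizontal axis), with the mean and SD of 3 libraries. Ccnd2 lay at 7.52 to 7.90 in all 9 unstimulated libraries and at 9.94 to 11.36 in the stimulated ones, while Cdkn1b moved the opposite way.

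Ccnd2 (chr6:127125162-127152193, minus strand, GRCm38, as are all gene positions here) had the largest rise of the 10 genes in all 3 responses. Without agonist it was at 7.64, 7.53 and 7.64 log2 CPM in Tlr9het, 7.86, 7.83 and 7.77 in Tlr997 and 7.57, 7.90 and 7.52 in Tlr779. With agonist it was at 11.19, 11.12 and 11.36 in Tlr9het, 10.89, 10.78 and 10.70 in Tlr997 and 10.08, 9.94 and 10.03 in Tlr779. The stimulated groups stood apart from the unstimulated ones and from each other, in the order Tlr9het, Tlr997, Tlr779, without overlap. Here and for Cdkn1b and Rb1 below, the place of Tlr779 crosses the arms and was not tested. The share of all genes that separate in this way was not computed. The log2 change was 3.62 in Tlr9het (SE 0.07, 12.3-fold, adjusted p = 4.5e-13), 2.97 in Tlr997 (SE 0.07, 7.83-fold, adjusted p = 2.1e-12) and 2.35 in Tlr779 (SE 0.10, 5.11-fold, adjusted p = 3.5e-06).

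Ccnd3 (chr17:47505051-47599691, plus strand) is the D cyclin that dividing pre-B and germinal centre cells use. It was at 6.09, 5.87 and 5.92 without and 5.65, 5.39 and 5.51 with CpG in Tlr9het, and at 6.13, 5.70 and 5.79 without and 5.78, 5.18 and 5.09 with CpG in Tlr997. Tlr779 libraries gave 6.11, 6.23 and 6.31 without and 5.68, 5.84 and 6.39 with CL097. The Tlr9het groups did not overlap, but both other pairs did. The log2 change was -0.45 in Tlr9het (SE 0.16, adjusted p = 0.023, under the size limit), -0.52 in Tlr997 (SE 0.16, adjusted p = 0.010, called) and -0.25 in Tlr779 (adjusted p = 0.24). The Tlr997 call was lost without unstimulated replicate 1 (-0.39), CpG replicate 2 (-0.44) or CpG replicate 3 (-0.39), and the Tlr9het change was called without CpG replicate 1 (-0.52).

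Ccnd1 (chr7:144929931-144939925, minus strand), the D cyclin of epithelial and many other adherent cells, lay at 1.24 to 1.86 log2 CPM in all 18 libraries. Its log2 change was 0.03 in Tlr9het (SE 0.20, adjusted p = 0.89), 0.25 in Tlr997 (adjusted p = 0.28) and 0.44 in Tlr779 (adjusted p = 0.12). The Tlr997 and Tlr779 groups did not overlap their unstimulated groups, while the Tlr9het groups did.

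To set the 3 cyclins side by side, CPM was divided by the summed length of each gene's exons. Per kb, Ccnd2 made up 52.4% ± 1.37 (SD, n = 3) of D cyclin RNA in unstimulated Tlr9het cells and 94.8% ± 0.561 with CpG. In Tlr997 its share went from 57.6% ± 3.35 to 93.7% ± 1.13, and in Tlr779 from 49.3% ± 3.98 to 85.1% ± 3.32. Ccnd3 held most of the rest, 46.1% ± 1.44, 41.0% ± 3.38 and 49.5% ± 3.75 without agonist and 4.98% ± 0.527, 5.98% ± 1.15 and 14.4% ± 3.34 with it. Unstimulated cells thus held both Ccnd2 and Ccnd3 RNA in quantity, and stimulated cells mostly Ccnd2. Not divided by length, the Ccnd2 share in Tlr9het was 74.8% without and 98.0% with CpG.

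**Figure D2:**
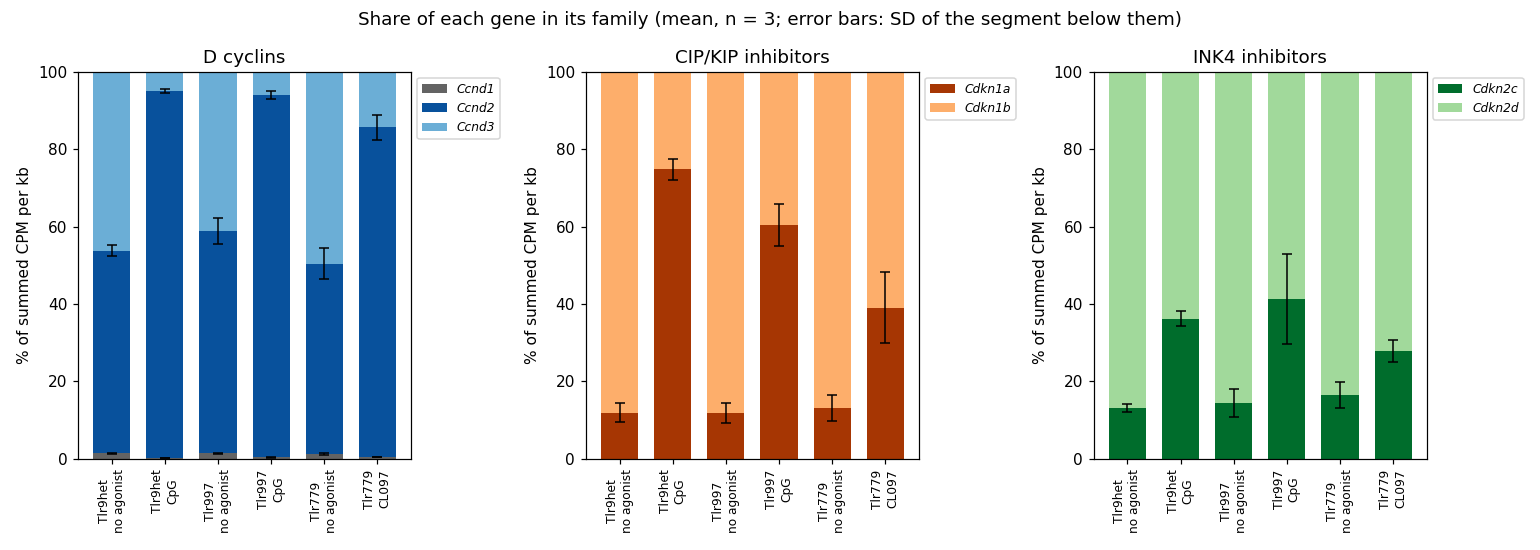
Share of each gene in the summed CPM per kb of the members of its family (vertical axis, %) in the 6 groups (horizontal axis). Values are means of 3 libraries, and error bars give the SD of the segment below them. Cdkn1c, Cdkn2a and Cdkn2b are not in these sums. With agonist, Ccnd2 made up 85.1% or more of D cyclin RNA, and Cdkn1a 74.8% of CIP/KIP RNA in Tlr9het against 11.9% without.

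Both kinase genes rose. Cdk4 (chr10:127063534-127067920, plus strand) was at 7.01, 7.00 and 7.2 without and 8.25, 8.33 and 8.43 with CpG in Tlr9het, at 7.05, 7.37 and 7.05 without and 8.54, 8.46 and 8.52 with CpG in Tlr997, and at 7.21, 7.38 and 7.12 without and 8.29, 8.28 and 8.0 with CL097 in Tlr779. No stimulated library overlapped an unstimulated one. Cdk4 changed by 1.26 in Tlr9het (2.40-fold, adjusted p = 1.5e-08), 1.35 in Tlr997 (2.55-fold, adjusted p = 9.5e-09) and 0.95 in Tlr779 (1.94-fold, adjusted p = 0.00011).

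Cdk6 (chr5:3341485-3531008, plus strand) started lower and rose further. It was at 3.97, 3.77 and 3.64 without and 6.69, 6.54 and 6.60 with CpG in Tlr9het, at 4.11, 3.85 and 4.07 without and 6.58, 6.27 and 6.50 with CpG in Tlr997, and at 3.67, 3.91 and 3.98 without and 6.07, 6.04 and 5.95 with CL097 in Tlr779. The unstimulated groups overlapped each other, and all stimulated libraries lay above them. Its log2 change was 2.82 in Tlr9het (7.04-fold, adjusted p = 6.4e-11), 2.44 in Tlr997 (5.42-fold, adjusted p = 3.2e-10) and 2.17 in Tlr779 (4.49-fold, adjusted p = 4.5e-06). Per kb, Cdk6 was still a small part of the CDK4 and CDK6 RNA, at 1.82% ± 0.321 without and 5.12% ± 0.486 with CpG in Tlr9het, 2.00% ± 0.408 and 4.11% ± 0.326 in Tlr997, and 1.69% ± 0.251 and 3.82% ± 0.276 in Tlr779. Not divided by length, the Cdk6 share was larger, 9.42%, 10.3% and 8.81% without and 23.2%, 19.4% and 18.2% with agonist.

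The CIP/KIP genes moved apart. Cdkn1b (chr6:134920401-134925513, plus strand), whose product p27 holds resting lymphocytes out of cycle, was at 7.37, 7.28 and 7.36 without and 4.76, 4.70 and 4.50 with CpG in Tlr9het. Tlr997 libraries gave 7.36, 7.24 and 7.3 without and 4.80, 4.76 and 4.78 with CpG, and Tlr779 libraries 7.52, 7.33 and 7.18 without and 5.52, 5.88 and 5.57 with CL097. The CpG groups overlapped each other and lay below the CL097 group, which lay below every unstimulated library. The log2 change of Cdkn1b was -2.68 in Tlr9het (6.42-fold lower, adjusted p = 3.9e-12), -2.52 in Tlr997 (5.75-fold lower, adjusted p = 8.2e-12) and -1.69 in Tlr779 (3.22-fold lower, adjusted p = 1.5e-05).

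Cdkn1a (chr17:29090976-29100727, plus strand), whose product p21 is the classical CDK inhibitor induced by p53, was at 3.74, 3.96 and 3.37 without and 5.58, 5.34 and 5.55 with CpG in Tlr9het. Tlr997 libraries gave 3.98, 3.73 and 3.21 without and 4.92, 4.74 and 4.28 with CpG, and Tlr779 libraries 3.79, 3.60 and 4.15 without and 4.19, 3.87 and 4.69 with CL097. Neither CpG pair overlapped, and the CL097 pair did. Cdkn1a changed by 1.80 in Tlr9het (SE 0.21, 3.47-fold, adjusted p = 3.8e-06) and 1.01 in Tlr997 (SE 0.21, 2.01-fold, adjusted p = 0.00074), and the value in Tlr779 was 0.40 (adjusted p = 0.16). Per kb, Cdkn1a went from 11.9% ± 2.40 to 74.8% ± 2.70 of CIP/KIP RNA in Tlr9het, from 11.9% ± 2.59 to 60.4% ± 5.39 in Tlr997 and from 13.1% ± 3.33 to 39.0% ± 9.21 in Tlr779. Not divided by length, its share with agonist was 64.0% in Tlr9het, 47.8% in Tlr997 and 27.8% in Tlr779, so that Cdkn1a held most of the CIP/KIP RNA of Tlr997 with CpG only per kb.

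Of the INK4 genes, Cdkn2d (chr9:21288410-21291407, minus strand) fell in all 3 responses. It was at 4.28, 4.08 and 3.96 without and 1.85, 2.26 and 1.70 with CpG in Tlr9het, at 4.92, 3.81 and 3.76 without and 2.02, 1.01 and 0.53 with CpG in Tlr997, and at 4.25, 4.38 and 4.53 without and 2.80, 3.64 and 3.59 with CL097 in Tlr779. No pair overlapped, although the Tlr997 libraries spread more widely than the others. The log2 change of Cdkn2d was -2.17 in Tlr9het (4.51-fold lower, adjusted p = 0.00011), -2.98 in Tlr997 (7.87-fold lower, adjusted p = 6.3e-06) and -1.04 in Tlr779 (2.06-fold lower, adjusted p = 0.0045).

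Cdkn2c (chr4:109660876-109667189, minus strand) was at 2.50, 2.26 and 1.93 without and 2.01, 2.19 and 1.75 with CpG in Tlr9het, at 2.70, 2.22 and 2.40 without and 1.87, 1.05 and 1.66 with CpG in Tlr997, and at 2.93, 3.12 and 2.59 without and 2.27, 3.34 and 2.89 with CL097 in Tlr779. It was called lower in Tlr997 (-0.91, SE 0.25, adjusted p = 0.0057), where the groups did not overlap, and its changes of -0.24 in Tlr9het (adjusted p = 0.41) and -0.05 in Tlr779 (adjusted p = 0.89) were not called. Mki67, a marker of cycling cells, was at 6.60, 8.98 and 8.72 in the CL097 libraries. Cdkn2c had this order in them, as did Ccnd1, Cdkn1b, Cdkn2d and Rb1, while Ccnd2 had the reverse order. The remaining members followed neither order. The share of all genes with either order was not computed, and the part of cycling cells was not tested. In the Tlr7-/- arm Mki67 ran from 4.58 to 7.42 and was highest in replicate 1 of every group.

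Rb1 (chr14:73183673-73325822, minus strand), the pocket protein that the D cyclin kinases phosphorylate, was at 7.95, 7.93 and 7.76 without and 6.41, 6.30 and 6.21 with CpG in Tlr9het. Tlr997 libraries gave 7.99, 7.98 and 7.85 without and 6.67, 6.67 and 6.60 with CpG, and Tlr779 libraries 8.23, 7.90 and 7.92 without and 6.79, 7.15 and 6.93 with CL097. The 3 stimulated groups lay below every unstimulated library and did not overlap each other. The log2 change of Rb1 was -1.57 in Tlr9het (2.97-fold lower, adjusted p = 1.9e-10), -1.29 in Tlr997 (2.45-fold lower, adjusted p = 1.5e-09) and -1.05 in Tlr779 (2.08-fold lower, adjusted p = 0.00014).

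**Figure D3:**
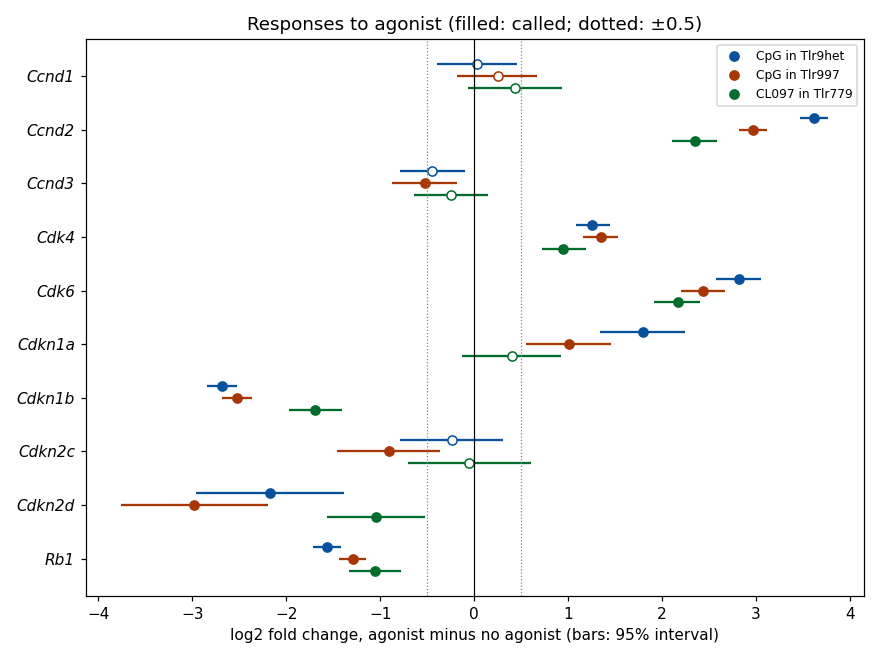
Log2 change with agonist (horizontal axis) of each gene (vertical axis) in the 3 responses, with 95% intervals; filled points were called and dotted lines mark 0.5. Ccnd2 lay at 2.35 to 3.62 and Cdk6 at 2.17 to 2.82, and Cdkn1b at -2.68 to -1.69.

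Ranked per kb within a group, Cdk4, Rb1 and Cdkn1b were, in that order, the 3 highest genes in all 3 unstimulated groups, and Ccnd2 and then Cdk4 the highest in all 3 stimulated groups. In Tlr9het, Ccnd2 went from 4.86 ± 0.06 to 8.48 ± 0.12 log2 CPM per kb and Cdkn1b from 5.15 ± 0.05 to 2.47 ± 0.14 (SD, n = 3). Ccnd1 came last in every group, at -0.51 to -0.07 on this scale. Of the 10 genes, 7 share exon bases with a gene on the opposite strand: Ccnd1 (818 bases with LTO1), Ccnd2 (372 with the antisense gene Gm43126), Ccnd3 (361 with Bysl), Cdk4 (641 with Tspan31), Cdk6 (110 with Gm17590), Cdkn1a (261 with AC167363.2) and Rb1 (105 with Rcbtb2). The library kit keeps strand, but whether the counting used it is not given in the sources used here, so the levels of these 7 genes are less certain.

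The question of the Tlr7-/- arm was whether the TIR domain alters the CpG response, which the difference of the responses (Tlr997 minus Tlr9het) measures. Only Ccnd2 of the 10 genes was called, where 1.54% of all genes were (0.687% higher, 0.853% lower). Its rise was smaller in Tlr997 by 0.65 on the log2 scale, a difference of -0.65 (SE 0.10, 95% interval -0.86 to -0.44, adjusted p = 0.0044). Subtracting libraries of the same number gave rises of 3.55, 3.59 and 3.73 in Tlr9het and 3.03, 2.95 and 2.93 in Tlr997. The labels do not tie replicate numbers to mice, so these are not shown to be matched responses. The share of all genes whose rises separate in this way was not computed. Leaving out any 1 of the 12 libraries kept this call, with values from -0.71 to -0.58, and without Tlr997 unstimulated replicate 3 it was -0.68 (adjusted p = 0.0052).

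For the other 9 genes the difference of responses was not called. Cdkn1a gave -0.79 (95% interval -1.43 to -0.15, adjusted p = 0.21), which was called only in the fit that blocked same-numbered libraries of a genotype (adjusted p = 0.041). Cdk6 gave -0.38 (-0.71 to -0.04, adjusted p = 0.25), Rb1 0.27 (0.07 to 0.48, adjusted p = 0.18) and Cdkn1b 0.16 (-0.06 to 0.38). Intervals of the INK4 genes were wide, -1.45 to 0.11 for Cdkn2c and -1.91 to 0.31 for Cdkn2d, and those of Cdk4 (-0.18 to 0.35), Ccnd3 (-0.57 to 0.42) and Ccnd1 (-0.39 to 0.82) spanned 0. These intervals bound the differences and do not show that the genotypes acted alike.

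Within the CpG-treated groups, Cdkn1a was the member called between genotypes, lower in Tlr997 by 0.84 on the log2 scale (-0.84, SE 0.21, adjusted p = 0.034), where 2.72% of all genes were called (1.25% higher, 1.47% lower). The call was lost without any 1 of the 3 Tlr9het CpG libraries (adjusted p = 0.12, 0.069 and 0.11) and without Tlr997 CpG replicate 2 (0.073) or 3 (-0.66, adjusted p = 0.13). Ccnd2 was at -0.43 (SE 0.07, adjusted p = 0.0027) and Rb1 at 0.34 (SE 0.07, adjusted p = 0.012), both past the p limit and under the size limit. Libraries of the 2 genotypes did not overlap for 5 members (Ccnd1, Ccnd2, Cdk4, Cdkn1a, Rb1), against 30.0% of all genes. Beside these differences, summed B cell markers with CpG were 1820 to 1880 CPM in Tlr9het and 2790 to 3330 in Tlr997, and 3 of the 7 markers were called higher in Tlr997.

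Without agonist no member was called between Tlr997 and Tlr9het by limma, and 0.0174% of all genes were. At an unadjusted p under 0.05, 1 member (Ccnd2) and 1237 of the 11494 genes passed. Ccnd2 was at 0.22 (SE 0.07, adjusted p = 0.34, 95% interval 0.07 to 0.37), higher in all 3 Tlr997 libraries than in any Tlr9het library, and the only member without overlap (13.6% of all genes). Its order between the genotypes was thus the opposite of that with CpG.

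**Figure D4:**
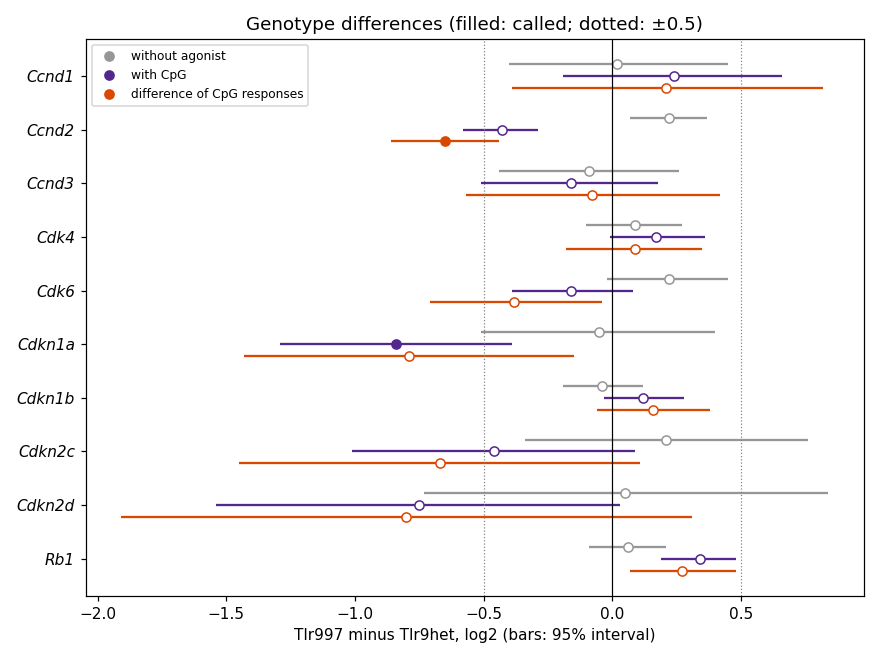
Tlr997 minus Tlr9het on the log2 scale (horizontal axis) for each gene (vertical axis), without agonist, with CpG and as the difference of the CpG responses, with 95% intervals; filled points were called. Ccnd2 was at 0.22, -0.43 and -0.65 and Cdkn1a at -0.05, -0.84 and -0.79.

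Genes around the 10 members were taken from lists of the same pathway, whose counts are to be read against the 57.9%, 55.6% and 46.3% of all genes called in the Tlr9het, Tlr997 and Tlr779 responses. Among the other pocket proteins, Rbl2 (p130), the partner of E2F4 in quiescent cells, fell in all 3 responses (-2.42, -2.37 and -1.81 in Tlr9het, Tlr997 and Tlr779), and Rbl1 (p107) fell with CpG (-1.69 and -1.03) and was at 0.16 with CL097. Of 10 E2F and DP genes, 6, 5 and 7 rose and 1, 1 and 0 fell, with medians of 0.66, 0.57 and 0.76. The Tlr779 count includes E2f8 (1.27), a call lost without CL097 replicate 2 or 3 or any unstimulated library (0.91 to 1.35). Tfdp2, the fall with CpG, lost its call in Tlr997 without unstimulated replicate 1 or CpG replicate 2 or 3 (-1.71 to -1.48). Tfdp1, a dimer partner of the E2Fs, rose by 1.57, 1.57 and 1.38, and E2f5 by 1.47, 1.67 and 1.08. Of the 5 genes of cyclins E and A and CDK2, 2, 2 and 3 rose and 2, 0 and 0 fell. Of these, Ccne2 (cyclin E2) in Tlr997 was at 0.78 (adjusted p = 0.048), a call lost without Tlr997 unstimulated replicate 2 or 3, Tlr997 CpG replicate 1 or 2, Tlr9het unstimulated replicate 2 or Tlr9het CpG replicate 2 (0.62 to 0.80), which leaves 1 gene. Cdc25a, the phosphatase that activates CDK2, rose by 1.83, 1.36 and 1.91. Cdk2 itself fell in Tlr9het (-0.63, adjusted p = 3e-06) and was called lower in neither other response. Ccne1 fell in Tlr9het (-0.94, a call lost without CpG replicate 2 or 3, -0.75 in each case) and rose in Tlr779 (1.11).

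Of 12 E2F target genes of DNA replication, 5, 5 and 4 rose and 1, 1 and 0 fell, with medians of 0.38, 0.36 and 0.39. The share of these 12 genes called was in each response below that of all genes. Among them, Rrm2 in Tlr779 (1.44) lost its call without CL097 replicate 2 or 3 or any unstimulated library (1.04 to 1.5). In Tlr997, Mcm3 lost its call without unstimulated replicate 3 (0.49) and Mcm5 without CpG replicate 1 (0.5). Tyms, which makes thymidylate, rose by 2.73, 2.81 and 2.57, and Cdt1, the origin licensing factor, fell with CpG by 0.68 in both genotypes. Of the upstream regulators, 9 genes, 3, 2 and 3 rose and 4, 4 and 4 fell. The Tlr779 falls include Foxo3 (-0.69), a call lost without CL097 replicate 1 or unstimulated replicate 1 or 2 (-0.72 to -0.45). Myc, which drives Ccnd2 and Cdk4 transcription in many cells, rose by 2.77, 2.39 and 2.56, from 7.66 to 8.43 log2 CPM without agonist to 10.29 to 10.96 with it. Klf2, a quiescence factor, changed by -2.26, -2.65 and -1.25, and Gsk3b, a kinase that marks D cyclins for degradation, by -1.06, -1.13 and -0.87.

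Of the 7 ubiquitin ligase parts that turn over p27 and cyclins, 3, 1 and 3 rose and none fell by limma in the 3 responses. Cks1b, the cofactor of SKP2 for p27, rose with CpG by 1.30 and 1.14 and with CL097 by 0.51, a call lost without CL097 replicate 2 or 3 or unstimulated replicate 1 or 3 (0.39 to 0.51), while Skp2 itself lay at 2.41 to 2.91 log2 CPM in all libraries. In the CDK-activating kinase, Cdk7 and Mnat1 of 3 genes rose in each response (Cdk7 by 0.67, 0.67 and 0.57, Mnat1 by 0.56, 0.54 and 0.65). Mnat1 lost its call without unstimulated replicate 2 of Tlr9het (0.49) and of Tlr997 (0.47), which leaves 1 gene in each. Of 9 p53 pathway genes tested, 3 rose and 3 fell in each response. Bax with CL097 (0.56) lost its call without unstimulated replicate 2 (0.5). Sesn2, a stress-induced gene, rose by 2.32, 1.83 and 0.81, and Sesn1 and Btg2 fell, Sesn1 by 3.33, 2.85 and 2.21 on the log2 scale. The p53 gene Trp53 itself lay at 7.52 to 7.81 without agonist and 7.86 to 8.15 with it. Of the remaining CDK inhibitors, Cdkn2a, Cdkn2b and Cdkn1c were at 2.04 log2 CPM or below. Cdkn2a and Cdkn2b passed the filter on low values only through CpG libraries, so that a higher call was built into their choice and none is counted. Cdkn2b was at -4.73 to -1.48 without and -0.10 to 2.04 with agonist, Cdkn2a at -4.86 to -0.25 and -1.86 to 1.39, and Cdkn1c at 0.72 or below. In Tlr9het with CpG, Cdkn2b (1.37 to 2.04) overlapped the member Cdkn2d (1.70 to 2.26).

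In the difference of the CpG responses, 1.54% of all genes were called by limma (0.687% higher, 0.853% lower). Among the pathway lists, 1 gene was higher in Tlr997, Rbl1 (0.66, SE 0.14, adjusted p = 0.031), of 2 other pocket proteins. Lower were 3, from 7 ubiquitin ligase parts and 9 upstream regulators, and the remaining lists held no call. Foxo1, which activates Cdkn1b, gave -0.57 (SE 0.10, adjusted p = 0.0088): it was at 8.20, 8.16 and 8.21 with CpG in Tlr9het and 7.68, 7.55 and 7.67 in Tlr997, beside 8.11 to 8.40 without agonist. Fbxw7, the ligase part for cyclin E and MYC, gave -0.60 (adjusted p = 0.019) and Fbxo4 -0.56 (adjusted p = 0.034). The Foxo1 call was lost without Tlr997 unstimulated replicate 1 (-0.49, under the size limit), and the Fbxw7 call without Tlr9het unstimulated replicate 1 (-0.60), CpG replicate 1 (-0.60) or CpG replicate 3 (-0.57). The Rbl1 call was lost without Tlr997 CpG replicate 1 or 2, Tlr9het unstimulated replicate 1 or 2, or Tlr9het CpG replicate 2 or 3 (0.58 to 0.66). Fbxo4 lost its call without Tlr997 unstimulated replicate 2, Tlr997 CpG replicate 1 or 2, Tlr9het unstimulated replicate 1 or 3, or any Tlr9het CpG library (-0.60 to -0.51). Within the CpG-treated groups, where 2.72% of all genes were called, Fbxw7 (-0.78), Foxo1 (-0.56) and Bcl6 (-0.55) were lower in Tlr997. Rbl1 (0.54) was higher, and the remaining pathway lists again held no call. Bcl6 lost this call without Tlr997 CpG replicate 2 (-0.48) or 3 (-0.49), and Rbl1 without Tlr997 CpG replicate 2 or Tlr9het CpG replicate 3 (0.49 in each case).

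Over the 18 libraries, the genes whose log2 CPM followed a member most closely among 11012 genes were, for Ccnd2, Pwp2, Rrp9 and Urb2 (Pearson r of 0.997 each). For Cdk4 they were Psmg1, Eif3i (both 0.992) and Set (0.991), and for Cdk6 Tmcc3, Il2ra (both 0.996) and Batf (0.995). Cdkn1b was followed most closely by Fmnl1, Kdm2a and Sipa1 (0.995 each), Rb1 by Bmp2k (0.990), Acap2 (0.988) and Hbp1 (0.987), and Cdkn2d by Cux1 (0.984), Ctse (0.978) and Slc14a1 (0.972). The closest values were lower for Ccnd3 (Rag1, 0.943), Cdkn1a (Arhgap31, 0.936), Cdkn2c (Cit, 0.892) and Ccnd1 (Rsrc2, 0.805). The points share the stimulus and the arms, so these values describe the 18 libraries and carry no test.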

How the data were processed

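RNA of bead-purified splenic B cells was sequenced as stranded mRNA libraries. The authors aligned reads to mm10 and counted them per gene, applied quantile normalisation and voom, and deposited log2 CPM, 1 file per library with 23420 gene symbols and no counts. The submitters' processing notes name FastQC 0.11.7, Trim Galore 0.6.5, STAR 2.6.1a and Subread 2.0.1 (featureCounts). Depth per library is unknown, so no counting interval was computed; the number of libraries limits the precision.

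Genes over 0 log2 CPM in at least 3 fitted libraries were tested with limma 3.58.1 (R 4.3.3, a trend of variance on mean): 1 model for the 12 libraries of the Tlr7-/- arm and 1 for the 6 of the Tlr779 arm. P-values were adjusted (Benjamini-Hochberg) over all genes tested. Fold changes contain voom's offset, which understates changes of low genes. All 10 members are named; of each pathway list, up to 3 called genes with the largest and 3 with the smallest change could be named, and other genes are named by level only. Skp2, Trp53, Cdkn1c and Mki67 were added after their values were seen. The members and lists were chosen with earlier results of these data known.

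Exon lengths and positions are from GENCODE M21 (GRCm38, the same assembly as mm10). The labels say that cells of 3 mice per genotype were stimulated or left unstimulated, without tying replicate numbers to mice, so p-values measure the spread between these libraries. Deviations of same-numbered libraries correlated at 0.51, 0.29 and 0.51 in Tlr9het, at 0.25, 0.49 and 0.33 in Tlr779 and at 0.37, 0.08 and 0.02 in Tlr997. Same-numbered libraries thus resembled each other in Tlr9het and Tlr779, which was not shown in Tlr997. Whether equal numbers stand for the same mouse was not shown in any genotype. The labels tie no Tlr9het number to a Tlr997 number, but the values share a feature by number across both genotypes. Of 6614 genes below -4 in the 12 libraries, 6306 had a single value per replicate number. A term for that number may have been removed before deposit, which the test does not count; the fit with the number as a block across the arm is among the alternatives. Alternatives were other filters, variance models, scalings, a pseudocount of 1, other sets of libraries, thresholds, replicate blocks, and each library left out.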

Additional observations from a re-analysis of the deposited data

Results flagged for a closer look

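The CpG response of Ccnd2 differed between the genotypes by the test of the difference itself (limma). The difference was -0.65 on the log2 scale, Tlr997 minus Tlr9het (adjusted p = 0.0044). Same-numbered rises were 3.03, 2.95 and 2.93 in Tlr997 and 3.55, 3.59 and 3.73 in Tlr9het. Replicate numbers were not shown to stand for the same mice.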

How the results depend on the processing

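The counts of members called ranged over the libraries left out from 7 to 8 (CpG in Tlr9het), 8 to 9 (CpG in Tlr997), 6 to 6 (CL097), 1 to 1 (difference of responses), 0 to 0 (unstimulated) and 0 to 1 (with CpG). Between genotypes with CpG, 0 members were called without a filter on low values, without the variance trend, with all 18 libraries in 1 model or over a log2 change of 1, and 3 at any size of change (limma; 2187 genes had an unadjusted p under 0.05). In the difference of responses, 2 were called with the replicate block within genotypes and 0 over a log2 change of 1. The block changed no other call of a member. Ccnd2 in the difference of responses stayed called under all 22 alternatives that kept the size limit (adjusted p 0.00093 to 0.039). Cdkn1a between genotypes with CpG was called under 14 of 22. Without a filter, Ccnd3 in Tlr997 (adjusted p = 0.06) and Cdkn2d with CL097 (0.053) were lost, as were Tfdp2, Ccne1 and others; the cause was not tested.

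Signs turned only for values near 0 that were never called. Without CpG replicate 1, Ccnd1 was at -0.05 in Tlr9het, and it ranged over the libraries left out from -0.05 to 0.13. In the difference of responses, Cdk4 was at -0.06 with array weights, and Ccnd3, which was at 0.05, 0.01 and 0.05 without Tlr997 unstimulated replicate 1 and CpG replicates 2 and 3, ranged from -0.29 to 0.05. Between unstimulated genotypes, Cdkn2d was at -0.03 with array weights and ranged over the libraries left out from -0.33 to 0.25, turning to -0.02 in a further case. Over the same libraries Ccnd1 had its lowest values at -0.02 and 0.00, Cdk4 went from -0.02 to 0.15 and Cdkn1a from -0.22 to 0.16 (also 0.08). With CL097, Cdkn2c ranged from -0.30 to 0.23, and was at 0.07 without unstimulated replicate 2. A filter over 2 log2 CPM leaves Ccnd1 untested. Shares within families moved beyond 1 SD in 29 of 30 cases when not divided by length. Depth is unknown, so no counting error could be given for low genes such as Ccnd1, Cdkn2c and Cdkn2d.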
